A study of Mus musculus with 6 samples.

Results

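Teneurins, latrophilins and fibronectin leucine-rich transmembrane (FLRT) proteins form a set of cell surface adhesion partners. They were followed here as 9 genes, Tenm2, Tenm3, Tenm4, Adgrl1, Adgrl2, Adgrl3, Flrt1, Flrt2 and Flrt3, of 55471 genes in the deposited table. The set was chosen from the comparison described here, because Tenm3 is nearly lost in it. The differences of the 9 members are therefore a description, and no p-value is given for them. Where a member is said to pass or to be called, this is only its place in the fit over all genes and supports nothing. The libraries come from 10T1/2 cells, a mouse embryonic fibroblast line, grown in serum-containing medium and left untreated, with 3 wild-type (WT) and 3 Ranbp2 KO libraries of polyA RNA. The knockout was made with CRISPR/Cas9, and the labels do not say whether the knockout libraries come from 1 clone or from several. The design text calls the replicates biological without saying how they were grown apart. P-values here therefore reflect only the variation among these 6 libraries.

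Teneurins are large single-pass membrane proteins whose extracellular part binds latrophilins on a neighbouring cell. Latrophilins are adhesion G protein-coupled receptors (GPCRs) that bind teneurins and FLRT proteins at separate places of their extracellular part. FLRT proteins also bind UNC5 receptors, which respond to netrins, and fibroblast growth factor receptors. The system is best known for guiding axons and building synapses in the nervous system, and FLRT2 and FLRT3 are also known from mesenchymal tissues of the embryo.

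Library totals lay between 32072817 and 46321967 expected counts. Ranbp2 itself stood at 292 ± 2.67 CPM (counts scaled to library size, SD, n = 3) in the Ranbp2 KO libraries and at 240 ± 17.2 CPM in WT, so its mRNA did not show the label and the libraries are called KO-labelled. Ranbp2 was called higher in KO-labelled libraries, by 0.28 on the log2 scale (SE 0.07, edgeR adjusted p = 0.0120), and the groups did not overlap. Counts are summed over all exons of a gene, so an altered transcript would still be counted. Of 10 fibroblast markers, 8 were at 77.6 CPM or more in every library, while Fap and Lum were under 1 CPM in all 6. Of 10 neuronal markers, 6 (Rbfox3, Snap25, Syt1, Dcx, Nefl and Elavl3) were under 1 CPM in all libraries. The summed level of the neuronal list was 263 to 283 CPM in KO-labelled and 217 to 239 CPM in WT libraries, most of it from Map2. The glial list summed to 1.88 to 2.98 CPM in WT and 2.64 to 3.42 CPM in KO-labelled libraries. Markers of endothelium, epithelium, skeletal muscle and blood were under 1 CPM in every library, apart from Pecam1, Tek, Cdh1, Acta1 and Cd68. The summed level of the fibroblast list was 21138 to 24840 CPM in WT and 26826 to 33727 CPM in KO-labelled libraries. Of its 9 tested markers, 4 were higher and 2 lower, beside 17.6% and 21.3% of all genes tested. Lum, among the 4, had 3, 15 and 4 counts in WT and reached the count filter through its KO-labelled libraries, which favoured this direction. The 5 endothelial markers summed to 35.3 to 39.5 CPM in WT and 20.9 to 24.8 CPM in KO-labelled libraries, mostly from Tek, and the 5 epithelial markers to 2.16 to 2.60 and 6.15 to 9.03 CPM, mostly from Cdh1. The groups did not overlap in the fibroblast, neuronal, endothelial and epithelial sums. The part of these markers in the results was not tested.

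Over all genes, edgeR's quasi-likelihood test with Benjamini-Hochberg adjustment called 6011 of 15454 genes tested at an adjusted p below 0.05. That is 38.9% of genes, with 17.6% higher and 21.3% lower in KO-labelled libraries. The CPM values of the groups did not overlap for 51.4% of genes tested. Of the 9 members, 8 passed the count filter, 2 were called higher (Tenm4 and Adgrl1), 3 lower (Tenm3, Flrt2 and Flrt3) and 3 did not pass (Adgrl2, Adgrl3 and Flrt1). Tenm2 did not reach the filter. The groups did not overlap in the 5 called members and overlapped in the other 4. The median log2 difference of the 8 filtered members was -0.29 and that of all genes tested 0.01. Since the comparison chose the set, nothing is read from these counts.

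**Figure D1:**
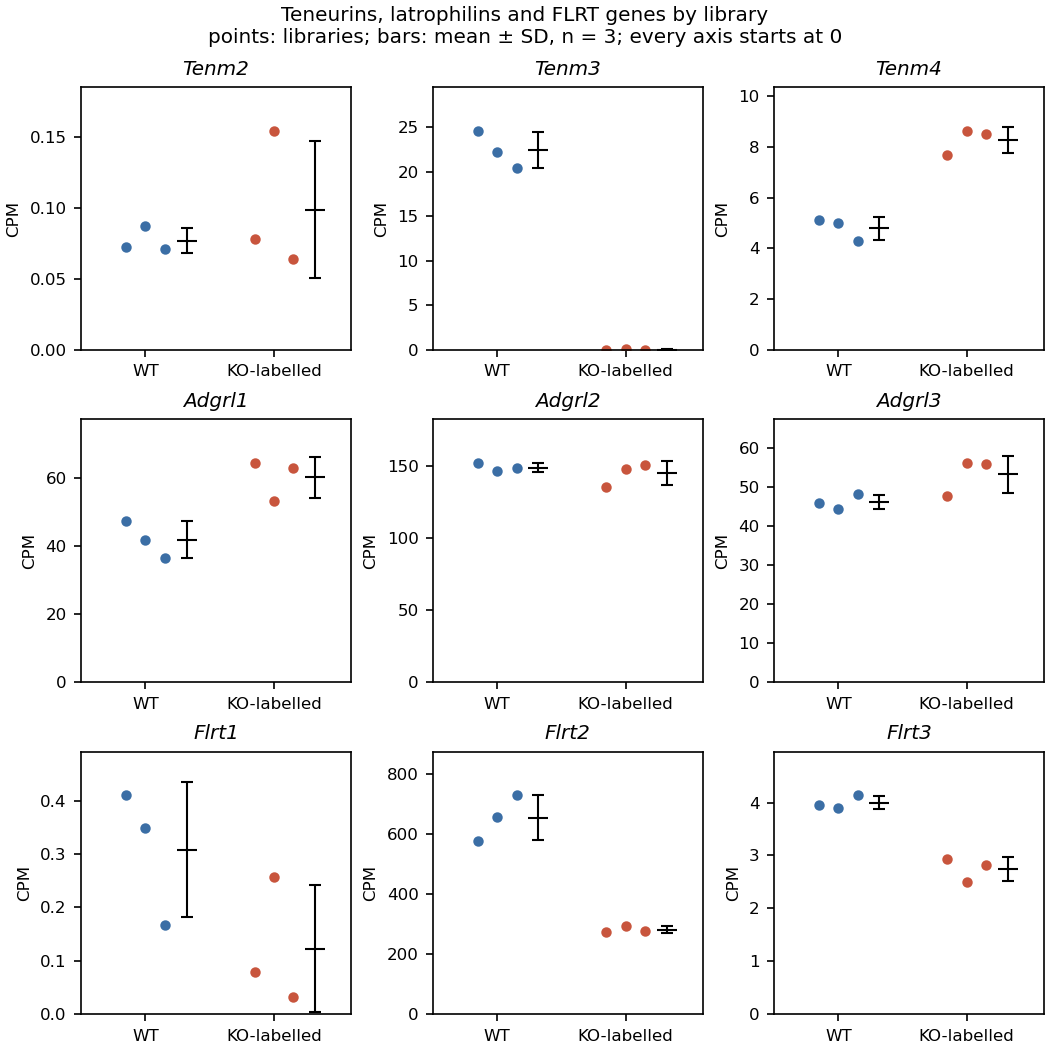
CPM of the 9 members (vertical axes, each from 0) in the 3 WT and 3 KO-labelled libraries; points are libraries and bars the mean ± SD. Tenm3 drops from 20.4 to 24.6 CPM in WT to at most 0.0770 CPM, Flrt2 from 579 to 730 to 275 to 295 CPM, and Tenm4 and Adgrl1 lie higher in KO-labelled libraries.

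Tenm3 and Flrt2 had the lowest KO-labelled levels relative to WT among members with at least 1 CPM. The 250 bases before their RefSeq starts are shown because both genes stood lower, with every CG pair in capitals, read 5′ to 3′ on the gene's own strand (GRCm38.p6).
Tenm3, chr8:48674691-48674940, minus strand: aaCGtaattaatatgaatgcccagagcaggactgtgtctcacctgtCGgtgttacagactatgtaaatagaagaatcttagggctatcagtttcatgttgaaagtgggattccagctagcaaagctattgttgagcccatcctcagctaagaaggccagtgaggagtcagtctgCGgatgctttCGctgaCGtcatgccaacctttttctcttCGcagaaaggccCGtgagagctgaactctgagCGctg
Flrt2, chr12:95691976-95692225, plus strand: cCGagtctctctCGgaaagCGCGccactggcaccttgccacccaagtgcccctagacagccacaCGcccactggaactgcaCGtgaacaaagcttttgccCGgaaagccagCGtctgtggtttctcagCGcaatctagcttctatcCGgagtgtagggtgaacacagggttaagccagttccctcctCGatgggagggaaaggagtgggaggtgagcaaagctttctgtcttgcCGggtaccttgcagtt
The Tenm3 window held 8 CG pairs, as many as or more than which were found in 43.0% of the 32851 promoter windows of the same length in the RefSeq table. The Flrt2 window held 12, and 33.5% of windows held as many or more. The letters TGACGTCA, the palindromic cyclic AMP response element, were found in the Tenm3 window, 63 to 56 bases before the start. This motif was looked for after the sequence was seen. It was present in 1.55% of all windows and in no other of the 11 windows of members in the table, which holds 8 of the 9 members. A match of letters does not show a site in use. For Tenm3, 2 of 8 annotated transcripts begin within 100 bases of this RefSeq start, whereas the annotated gene begins 169.3 kb further upstream, and counts per gene do not show which start was used.

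Among the teneurins, Tenm3 was the main gene of WT cells and close to absent from KO-labelled libraries. Tenm3 (ENSMUSG00000031561, chromosome 8, 48227682 to 48843951, minus strand) had 1019, 1022 and 860 counts in WT libraries 1 to 3. In KO-labelled libraries 1 to 3 it had 0, 3 and 0 counts. In CPM these are 24.6, 22.2 and 20.4 against 0, 0.0770 and 0. All 3 counts came from a single KO-labelled library. Over the groups, 2901 against 3 counts correspond to an 810-fold ratio after scaling for library size (95% interval 277 to 3932, counting error only). In bulk RNA, fewer cells that express a gene and less RNA per cell cannot be told apart. Both pseudogenes and the transcript annotated inside or across Tenm3 held at most 2 counts over a group.

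Tenm4 stood higher by less than 2-fold. Tenm4 (ENSMUSG00000048078, chromosome 7, 96171246 to 96911093, plus strand) was at 5.11, 5.01 and 4.28 CPM in WT and at 7.68, 8.63 and 8.50 CPM in KO-labelled libraries 1 to 3. Every KO-labelled library lay above every WT library. The log2 difference was 0.78 (SE 0.12), a 1.72-fold higher level. Tenm2 (ENSMUSG00000049336, chromosome 11, 36006656 to 37235964, minus strand) was near the limit of detection, with 3, 4 and 3 counts in WT and 3, 6 and 2 counts in KO-labelled libraries. The ratio of KO-labelled to WT counts was 1.31, with a 95% interval from counting error of 0.506 to 3.45. A difference in Tenm2 was not detectable at this depth.

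The makeup of teneurin mRNA therefore differed between the groups. Levels of different genes were compared per length, as counts divided by the union of a gene's exons and scaled to the same total in each library (TPM). The 3 teneurins summed to 8.37, 7.41 and 6.44 TPM in WT libraries and to 1.21, 1.24 and 1.16 TPM in KO-labelled libraries. Tenm3 made up 90.3 ± 0.407% of this sum in WT and 0.581 ± 1.01% in KO-labelled libraries (SD, n = 3). Tenm4 made up 9.41 ± 0.375% in WT and 97.3 ± 1.90% in KO-labelled libraries. In absolute terms Tenm4 was at 0.697 ± 0.0916 TPM in WT and 1.17 ± 0.0239 TPM in KO-labelled libraries, well under the 6.69 ± 0.876 TPM of Tenm3 in WT. Teneurins thus went from a mainly Tenm3 to a mainly Tenm4 makeup at a lower total.

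**Figure D2:**
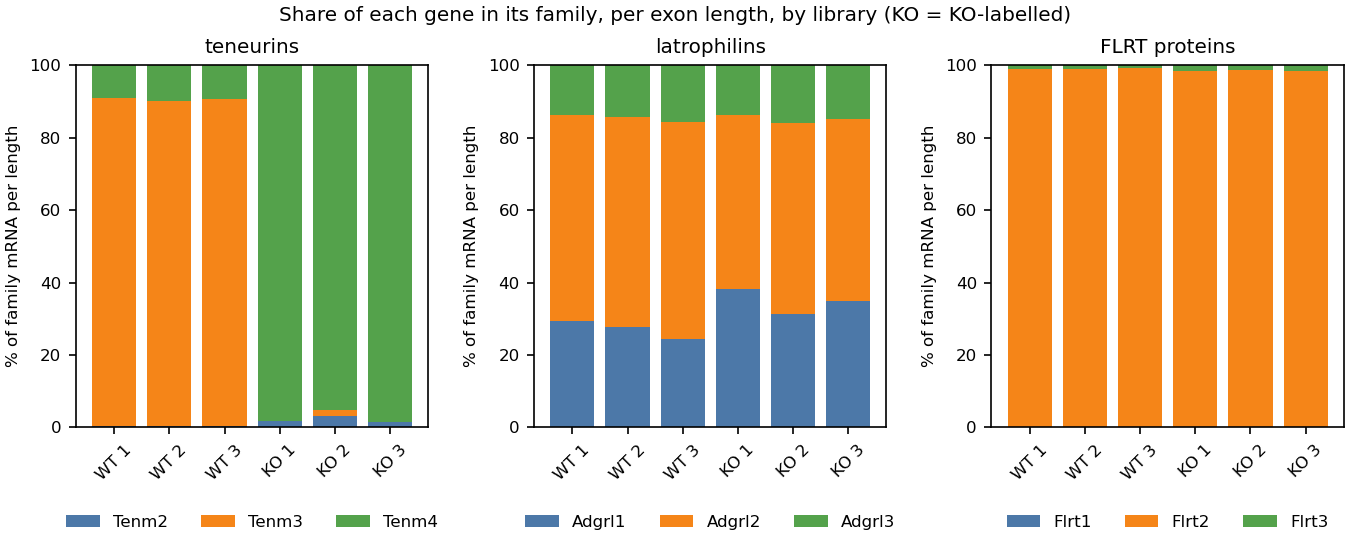
Share of each gene (vertical axis, % of its family's mRNA per exon length) in each of the 6 libraries, for teneurins, latrophilins and FLRT genes. Teneurin mRNA is mainly Tenm3 (90.3%) in WT and mainly Tenm4 (97.3%) in KO-labelled libraries, whereas Flrt2 makes up over 98% of FLRT mRNA in every library.

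All 3 latrophilins were expressed in both groups. Adgrl1, the gene of latrophilin-1 (ENSMUSG00000013033, chromosome 8, 83900105 to 83941954, plus strand), was at 47.3, 41.8 and 36.5 CPM in WT and at 64.4, 53.1 and 63.1 CPM in KO-labelled libraries. The lowest KO-labelled value lay above the highest WT value. The log2 difference was 0.52 (SE 0.11), a 1.44-fold higher level. Adgrl2, the gene of latrophilin-2 (ENSMUSG00000028184, chromosome 3, 148815583 to 148990555, minus strand), was at 152, 146 and 148 CPM in WT and at 135, 148 and 151 CPM in KO-labelled libraries. The groups overlapped, and the 95% interval of the log2 difference ran from -0.17 to 0.09. Its sign turned to 0.0058 without KO-labelled library 1. Adgrl3, the gene of latrophilin-3 (ENSMUSG00000037605, chromosome 5, 81020138 to 81825133, plus strand), was at 45.9, 44.5 and 48.2 CPM in WT and at 47.7, 56.1 and 55.9 CPM in KO-labelled libraries. KO-labelled library 1 lay within the WT range and the other two above it. The log2 difference of 0.20 (SE 0.08) did not pass. It was 0.28 and passed without KO-labelled library 1, and it also passed with library size alone (0.22) and with a filter of 1 CPM (0.23).

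The latrophilin receptors together kept a similar total, 54.7 ± 4.29 TPM in WT and 60.2 ± 3.64 TPM in KO-labelled libraries, in which the groups overlapped. Adgrl2 was the largest share, at 58.4 ± 1.56% in WT and 50.4 ± 2.21% in KO-labelled libraries, followed by Adgrl1 at 27.1 ± 2.49% and 34.7 ± 3.39%. Adgrl3 held 14.5 ± 0.949% and 14.9 ± 1.18%. The order of Adgrl1 and Adgrl3 rested on the length used. With the longest transcript as length, Adgrl3 held 18.6 ± 0.896% and Adgrl1 14.0 ± 1.52% in WT, and 20.0 ± 1.11% and 18.9 ± 2.30% in KO-labelled libraries. On the opposite strand, Gm10644 lies across Adgrl1, Gm43573 across Adgrl2 and Gm16054 across Adgrl3, each with at most 52.25 counts over a group. Gm16054 had 52.25 KO-labelled and 25.12 WT counts, and Gm10644 39.17 and 27.09. Opposite-strand genes also lie across Tenm4, the most counted being Gm15413 with 33 KO-labelled and 21 WT counts. The strand setting of the counting is not given, so reads of such pairs cannot be told apart. Adgrl3 itself had 5760.81 counts over the KO-labelled and 5975.62 over the WT group.

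Flrt2 was by far the most abundant member and stood lower in KO-labelled libraries. Flrt2 (ENSMUSG00000047414, chromosome 12, 95692226 to 95785215, plus strand) was at 579, 659 and 730 CPM in WT libraries. In KO-labelled libraries it was at 275, 295 and 277 CPM. The groups were far apart, and the WT libraries spread more widely than the KO-labelled ones. The log2 difference was -1.22 (SE 0.09), a 2.32-fold lower level. Flrt3 (ENSMUSG00000051379, chromosome 2, 140650914 to 140671469, minus strand) was at 3.95, 3.90 and 4.14 CPM in WT and at 2.92, 2.49 and 2.81 CPM in KO-labelled libraries. The highest KO-labelled value was under the lowest WT value, with a log2 difference of -0.54 (SE 0.14). Without KO-labelled library 2 it was -0.48 and no longer passed. Relative to the median of the other 1192 tested genes of chromosome 2, which stood at -0.11, it was -0.44.

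Flrt1 was rare in both groups. Flrt1 (ENSMUSG00000047787, chromosome 19, 7092001 to 7105729, minus strand) had 17, 16 and 7 counts in WT and 3, 10 and 1 counts in KO-labelled libraries. KO-labelled library 2 lay within the WT range, and the log2 difference of -1.26 (SE 0.64) did not pass. It was -2.37 and passed without that library. Flrt1 then reached the count filter through its WT libraries alone and so had to differ in this direction. Flrt1 and Flrt3 each lie inside a host gene on the opposite strand, Macrod1 and Macrod2, which encode macrodomain proteins. Macrod1 was at 3.45 to 4.63 CPM in WT and 4.26 to 4.67 CPM in KO-labelled libraries. Macrod2 was at 1.25 to 1.87 CPM in WT and 1.51 to 2.04 CPM in KO-labelled libraries. Neither host passed the edgeR test, with log2 differences of 0.21 (SE 0.15) and 0.16 (SE 0.23). FLRT mRNA summed to 261 ± 19.7 TPM in WT and 111 ± 7.44 TPM in KO-labelled libraries, of which Flrt2 held 98.97 ± 0.124% and 98.4 ± 0.132%.

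Ordered by level per length in WT, Flrt2 came first at 258 ± 19.8 TPM. It was followed by Adgrl2 (31.9 ± 1.67 TPM), Adgrl1 (14.9 ± 2.50 TPM), Adgrl3 (7.92 ± 0.247 TPM) and Tenm3 (6.69 ± 0.876 TPM). Flrt3 (2.50 ± 0.0584 TPM), Tenm4 (0.697 ± 0.0916 TPM), Flrt1 (0.162 ± 0.0710 TPM) and Tenm2 (0.0204 ± 0.00260 TPM) made up the lower end. No 2 neighbours in this order overlapped over the 3 WT libraries. In KO-labelled libraries the order was Flrt2 (109 ± 7.27 TPM), Adgrl2 (30.3 ± 0.548 TPM), Adgrl1 (20.98 ± 3.31 TPM), Adgrl3 (8.91 ± 0.180 TPM), Flrt3 (1.69 ± 0.246 TPM) and Tenm4. Flrt1, Tenm2 and Tenm3, all at 0.126 TPM or less, overlapped their neighbours there. Tenm3 thus went from the fifth place to the last. With the longest transcript as length, the mean of Adgrl3 was above that of Adgrl1, at 16.4 and 12.4 TPM in WT and 18.6 and 17.6 TPM in KO-labelled libraries, where the difference was within the spread of the libraries.

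Tested genes within 1 Mb of Tenm3 stayed far from its level of loss. Among them, only Gm45322 lay on the side where the annotated Tenm3 gene begins, 994 kb away. The rest lay beyond the other end of Tenm3. Of 35 other annotated genes within 1 Mb, 8 were tested, 1 rose, 1 fell and 6 did not pass. Over all genes tested, 38.9% were called. Dctd, a deoxycytidylate deaminase gene 74.4 kb away, was at 13.4 to 16.9 CPM in WT and 15.4 to 16.1 CPM in KO-labelled libraries. Its log2 difference was 0.03 (SE 0.10). Wwc2, a gene of the WWC family that acts in Hippo signalling, was at 248 ± 14.6 CPM in WT and fell to 162 ± 11.8 CPM, by 0.61 on the log2 scale (SE 0.08, edgeR adjusted p = 0.000236). Ing2, a chromatin-binding PHD finger gene, was at 9.94 ± 0.391 CPM in WT and rose to 14.5 ± 1.22 CPM, by 0.55 on the log2 scale (SE 0.09, edgeR adjusted p = 0.00144). Trappc11 (0.04), Rwdd4a (0.02), Cdkn2aip (-0.01), AA386476 (0.27) and Gm45322 (0.32) had log2 differences that did not pass. Chromosome 8 had a median log2 difference of -0.01 over its other tested genes.

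**Figure D3:**
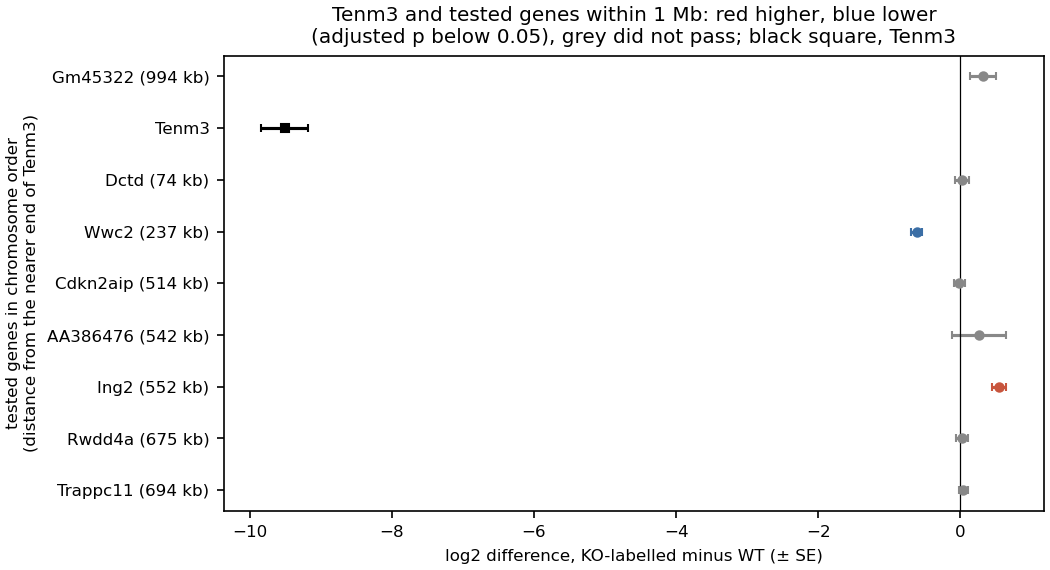
Log2 differences, KO-labelled minus WT, with SE (horizontal axis), of Tenm3 and the 8 tested genes within 1 Mb in chromosome order. The neighbours lie between -0.61 and 0.55 and Tenm3 at -9.51, a fitted value that rests on 3 KO-labelled counts.

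The genes whose levels over the 6 libraries lay closest to those of Tenm3 were Pxdc1, Stmn2, Klhl29, Ptpn13 and Itga8. The measure was the root mean square difference of log2 CPM, which was 0.47, 0.56, 0.93, 1.02 and 1.19. Stmn2 encodes a microtubule regulator of neurons, Ptpn13 a protein tyrosine phosphatase and Itga8 an integrin subunit. All 5 were at 7.42 CPM or more in each WT library and at 0.128 CPM or less in each KO-labelled library. They were picked for their likeness to Tenm3 and reached the count filter through their WT libraries alone. This pattern was thus fixed by the choice and is not a separate result. They lie on chromosomes 13, 3, 12, 5 and 2, none on that of Tenm3. Stmn2 is also on the neuronal marker list, of which 4 genes were tested, 1 rose (Map2) and 2 fell (Stmn2 and Tubb3). Stmn2 reached the count filter through its WT libraries alone and so had to differ in this direction. Of all genes tested, 17.6% were called higher and 21.3% lower, and nothing is read from the count of neuronal markers. Tubb3, a neuronal tubulin, went from 15.4 ± 1.10 to 2.03 ± 0.212 CPM.

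Other binding partners of the system were read from a list of 14 genes. Of these, 7 were tested, 2 rose, 3 fell and 2 did not pass, with Robo1 among the 3 only through a high WT level. Their median log2 difference was 0.06, beside 0.01 for all genes tested, of which 17.6% were called higher and 21.3% lower. The UNC5 receptors moved in opposite directions. Unc5b was at 232, 218 and 190 CPM in WT and at 110, 117 and 123 CPM in KO-labelled libraries, and fell by 0.87 on the log2 scale (SE 0.09, edgeR adjusted p = 4.78e-05). Unc5c was at 53.1, 56.0 and 54.8 CPM in WT and at 90.3, 103 and 105 CPM in KO-labelled libraries, and rose by 0.86 (SE 0.08, edgeR adjusted p = 2.05e-05). In neither gene did the groups overlap. Within each library, Unc5b per length stood 11.9 ± 1.40 times above Unc5c in WT and 3.597 ± 0.133 times in KO-labelled libraries.

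The 2 listed fibroblast growth factor receptors showed a like split, and others were not listed. Fgfr1 was at 187, 168 and 158 CPM in WT and at 112, 118 and 127 CPM in KO-labelled libraries, and fell by 0.52 on the log2 scale (SE 0.08, edgeR adjusted p = 0.000832). Fgfr2 was at 27.3, 26.3 and 25.4 CPM in WT and at 42.7, 43.95 and 45.2 CPM in KO-labelled libraries, and rose by 0.74 (SE 0.07, edgeR adjusted p = 2.63e-05). The ratio of Fgfr1 to Fgfr2 per length was 6.79 ± 0.334 in WT and 2.84 ± 0.102 in KO-labelled libraries. For both receptor ratios an exact two-sided permutation test of 3 against 3 values gave p = 0.1, the smallest value that this design allows. It was 0.1 also after Benjamini-Hochberg adjustment over the 2 ratios. In each pair the genes moved in opposite directions without overlap of the groups, so the ratio had to separate the groups. This p-value therefore adds nothing to the values of the single genes. Fgfr1 remained the more abundant of these 2 receptors in every library.

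Robo1, a SLIT receptor that FLRT3 can bind, fell from 1.83, 1.76 and 1.97 CPM in WT to 0.0522, 0.0770 and 0 CPM in KO-labelled libraries. The log2 difference of -5.25 (SE 0.46) rests on 5 KO-labelled counts. Robo1 reached the count filter through its WT libraries alone and so had to differ in this direction, and no p-value is given for it. Dag1, the gene of dystroglycan, was at 225 to 256 CPM in WT and 215 to 272 CPM in KO-labelled libraries, with a 95% interval of the log2 difference from -0.13 to 0.25. Adgrl4, an endothelial relative of the latrophilins, was at 0.133 to 0.487 CPM in WT and at 0.228 to 0.592 CPM in KO-labelled libraries and did not pass. Tenm1, Unc5a, Unc5d, Nrxn2, Nrxn3 and Cntn6 did not reach the count filter, with at most 12 counts over a group.

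**Figure D4:**
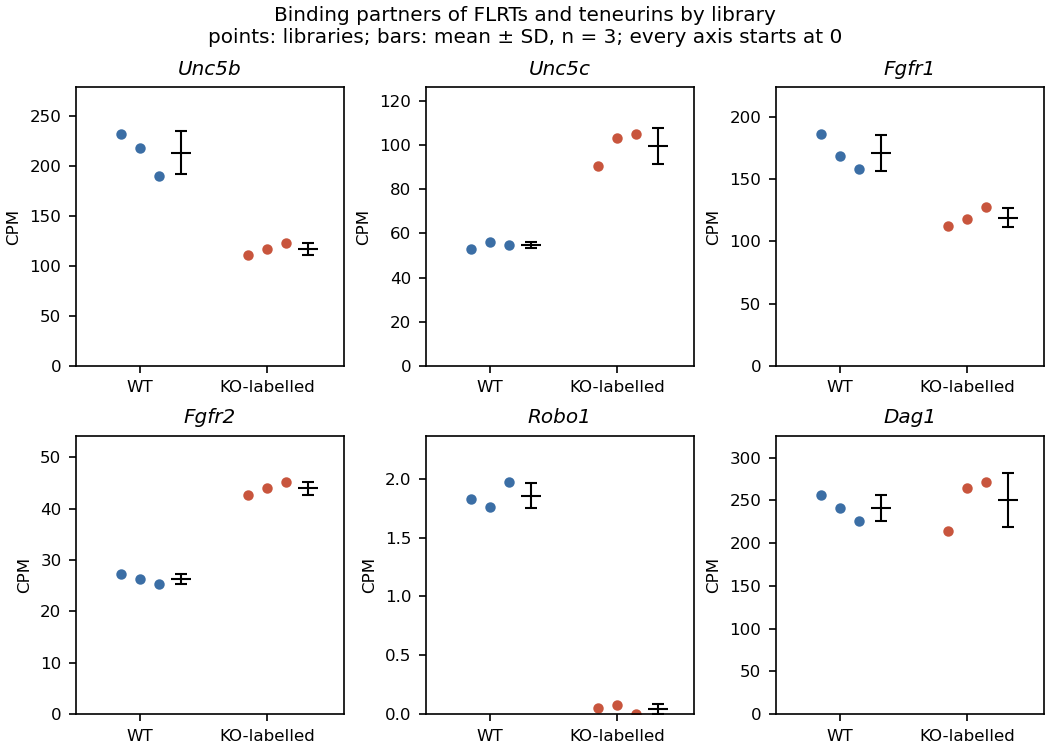
CPM of 6 binding partners (vertical axes, each from 0) in the 3 WT and 3 KO-labelled libraries; points are libraries and bars the mean ± SD. Unc5b, Fgfr1 and Robo1 lie lower and Unc5c and Fgfr2 higher in all 3 KO-labelled libraries, while the values of Dag1 overlap.

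Of 6 intracellular partners, 5 were tested, 0 rose, 1 fell and 4 did not pass, beside 38.9% called among all genes tested. Gna12 and Gna13, the G proteins through which latrophilin-3 can signal, had log2 differences of -0.14 (SE 0.10) and -0.03 (SE 0.07). The Shank genes encode scaffolds that bind the latrophilin tail, and were under 1 CPM. Shank1 had a log2 difference of 1.05 (SE 0.44) and Shank2 one of -0.83 (SE 0.35). Shank3 was not tested. At an unadjusted edgeR p below 0.05, 1 of the 5 was higher (Shank1), while Shank2 was lower, as was the called gene. DESeq2 called 0 higher and 1 lower. The count of 1 call became 3 without KO-labelled library 1, and 2 without KO-labelled library 3 (1 of them higher) or WT library 3.

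The latrophilins belong to the adhesion GPCRs, of which 26 others were listed. Of these, 10 were tested, 3 rose, 2 fell and 5 did not pass, beside 38.9% called among all genes tested. The median log2 difference of the 10 was 0.15. The risers were 2 with no count filter, with the replicate block, and without KO-labelled library 2, KO-labelled library 3 or WT library 2. Adgre5, the gene of CD97, fell from 29.7 ± 2.10 to 14.5 ± 0.900 CPM, and Adgrg1, the gene of GPR56, from 1.85 ± 0.0742 to 0.533 ± 0.0844 CPM. Adgrg6, the gene of GPR126, rose from 105 ± 2.56 to 137 ± 10.3 CPM and Adgrb2 from 1.17 ± 0.130 to 3.05 ± 0.325 CPM. Log2 differences were -1.03 (SE 0.08), -1.78 (SE 0.23), 0.38 (SE 0.07) and 1.38 (SE 0.19) in this order. The edgeR adjusted p of these 4 genes ranged up to 0.00267. The third riser was Adgra3, at 53.9 to 56.9 CPM in WT and 60.9 to 68.8 CPM in KO-labelled libraries (log2 difference 0.25, SE 0.07, edgeR adjusted p = 0.0218), named after its values were seen.

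The FLRT proteins carry leucine-rich repeats, and 29 other membrane proteins with such repeats were listed. Of these, 12 were tested, 0 rose, 8 fell and 4 did not pass, beside 17.6% higher and 21.3% lower among all genes tested. The median log2 difference of the 12 was -1.09. DESeq2 also called 0 higher, as did an unadjusted edgeR p below 0.05, and edgeR called 1 higher without WT library 2. The fallers were 7 with DESeq2, with no count filter, with the replicate block and with any library left out. They were 6 with a filter of 1 CPM. Amigo2, Lingo1, Lingo2, Lrrn3, Lrrc4c and Elfn1 would not have reached the count filter on their KO-labelled libraries alone. The filter thus favoured this direction, so the count is not support for one. It did not force the direction in all of them, since Elfn1 had 8, 19 and 16 and Lrrn3 3, 11 and 9 KO-labelled counts. Amigo2, a homophilic adhesion protein, fell from 2.94 ± 0.200 to 0.0363 ± 0.0387 CPM and Lingo1, a partner of the Nogo receptor, from 2.62 ± 0.574 to 0.179 ± 0.0881 CPM. Lrrn3 fell from 1.98 ± 0.247 to 0.216 ± 0.119 CPM, and Lrrc4c, the netrin-G1 ligand gene, from 1.12 ± 0.344 to 0.221 ± 0.187 CPM. Log2 differences were -6.20 (SE 0.44), -3.87 (SE 0.36), -3.19 (SE 0.37) and -2.29 (SE 0.49). No p-value is given for these 4 genes because of the filter. Lrig1 and Lrig3, regulators of growth factor receptors named after their values were seen, were well above the filter in both groups. Lrig1 fell from 15.5 ± 1.08 to 8.69 ± 0.783 CPM, by 0.83 on the log2 scale (SE 0.10, edgeR adjusted p = 0.000174). Lrig3 fell from 51.8 ± 2.65 to 27.3 ± 2.68 CPM, by 0.92 (SE 0.09, edgeR adjusted p = 3.37e-05).

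**Figure D5:**
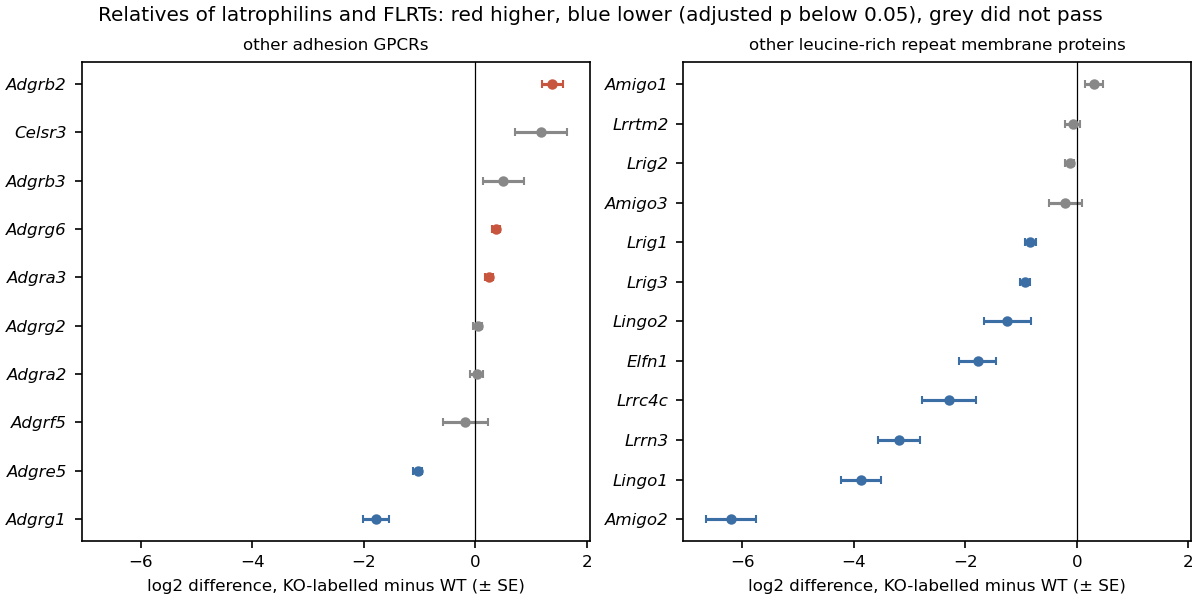
Log2 differences, KO-labelled minus WT, with SE (horizontal axis), of the 10 tested adhesion GPCRs and the 12 tested leucine-rich repeat membrane proteins; colours give the edgeR call. The adhesion GPCRs lie on both sides of 0, between -1.78 and 1.38, and the 8 called leucine-rich repeat genes lie between -6.20 and -0.83.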

How the data were processed

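PolyA RNA from 6 libraries (3 WT, 3 Ranbp2 KO) was compared. The authors deposited expected counts for each gene; the submitters' processing notes name cutadapt, RSEM and GRCm38. Versions, the aligner and the strandedness were not given in the sources used here. Of the deposited expected counts, 17.9% are fractional, as RSEM shares ambiguous reads out. Counts were rounded, filtered with filterByExpr (minimum count 10, minimum total 15), scaled with TMM and tested with edgeR 4.0.16 (quasi-likelihood F test, R 4.3.3), with a genotype term alone. P-values are two-sided and adjusted over all 15454 genes tested. Alternatives used DESeq2 1.42.0, other scalings, other filters, the replicate number and each library left out. Symbols, positions and lengths came from GENCODE M21 (GRCm38), which matched 55230 of 55471 identifiers; promoter windows came from RefSeq. CPM uses TMM-scaled library sizes and SE the F statistic; intervals on log2 differences are 1.96 SE to each side.

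The members and all lists were chosen with earlier results of these data known. Named were all members, tested partners and neighbours within 1 Mb of Tenm3, up to 4 called genes of each list of relatives by size of change at 1 CPM or more, and the 5 genes closest to Tenm3. Values of some listed genes are not reported here.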

Additional observations from a re-analysis of the deposited data

How the results depend on the processing

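Over all genes, 6011 calls became 4994 with the replicate block, 5824 with DESeq2 and 4353 to 6106 with a library left out. Replicate numbers did not pair the libraries (correlations of deviations 0.0224, -0.0811 and -0.0343 for equal numbers), and the block changed no call among the members. Tenm4, Adgrl1 and Flrt2 kept their direction in each alternative run. The fitted log2 difference of Tenm3 was -12.80 to -8.94 with a library left out, lowest without KO-labelled library 2, which holds all its KO-labelled counts. Adgrl3 passed with library size alone (0.22) and with a 1 CPM filter (0.23), with 0.16 to 0.28 over libraries left out. Adgrl2 ranged from -0.074 to 0.0058 and Flrt3 from -0.59 to -0.48 with a library left out. Flrt3 was -0.44 after subtraction of its chromosome's median. Flrt1 ranged from -2.37 to -0.87 over the left-out libraries with which it was tested. It was not tested without WT library 1, without WT library 2 or with the 1 CPM filter. Intracellular partners gave 2 calls without a count filter and 1 to 3 with a library left out; for the last, the cause was not tested. Depth limits Tenm2 and Flrt1, and levels between genes depend on the length used.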
